A study of Mus musculus with 17 samples.

Results

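Genes of MHC class I presentation and of T cell costimulation were followed on 17 one-colour arrays of the mouse leukaemia line DA1-3b. The 10 genes were taken by gene name from the array files, and 9 of them were among the 15254 genes tested. The arrays carried 13 probes for the 10 genes, out of 39429 probes in all, and 12 of those probes passed the filter on dim probes. DA1-3b is a Bcr-Abl+ line, labelled with the strain C3H eOuJ, and every sample had been transfected with a p65/RelA plasmid. The mutant D361E, which the series describes as non-cleavable, was on 4 arrays. The fragment 1-361 was on 3 arrays, the fragment 362-549 on 3, and both fragments together (1-361+362-549) on 3. Wild-type p65 (WT), on 4 arrays, served as the reference, since samples with the empty plasmid that the protocol names were not analysed here. The labels name no separate cultures or clones, so every p-value measures only how these arrays scatter, and that scatter may be technical. In RNA from whole cultures, fewer cells of a type and less RNA per cell cannot be told apart.

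MHC class I molecules carry peptides from inside a cell to its surface, where CD8 T cells read them. The proteasome cuts proteins into peptides, and in blood cells the immunoproteasome subunits Psmb8 and Psmb9 replace constitutive ones. The transporter made of Tap1 and Tap2 pumps peptides into the endoplasmic reticulum, where tapasin (Tapbp) loads them onto the heavy chain (here H2-K1) bound to B2m. A T cell also reads a second class of surface ligands: Cd80 and Cd86 bind the activating receptor CD28 and the inhibitory receptor CTLA-4, and Cd274, the ligand PD-L1, binds the inhibitory receptor PD-1. NF-kB, with p65/RelA as a subunit, is a known regulator of several of these genes.

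Levels are log2 values relative to the 75th percentile of the array, so 0 is as bright as that percentile, and a change is the difference of 2 group means on this scale. A gene is called at an adjusted p under 0.05. The 75th percentile itself averaged 781 for D361E, 774 for 1-361, 678 for 362-549, 1040 for 1-361+362-549 and 909 for WT. Arrays of 1 group correlated across genes at 0.966 to 0.995, and genes are not independent replicates. Rela averaged 4.74 to 4.86 over the 5 groups, a description only. Whether its probe reads RNA of the plasmid, of the cell's own gene or of both was not tested. Of 8 markers of blood cell lines, 7 were well above background on every array and Kit was so on none. The markers Cd79a and Ms4a1 of B cells, Ncr1, Klrb1c and Klrk1 of natural killer cells, Mertk of macrophages, and Dcn, Pdgfra and Col1a1 of fibroblasts were well above background on no array. Other genes of the same lists were so on all 17 arrays, namely Cd79b (B cells), Nkg7 (natural killer cells), Csf1r and Cd68 (macrophages), Siglech and Ccr7 (dendritic cells), and Cd3d, Cd3e and Cd4 (T cells).

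The promoter windows of 8 of the 10 genes could be matched in RefSeq (build GRCm38.p6, reference mouse genome, not the C3H strain of the cells). Tap2 and Cd86 are named only. The 250 bases before the annotated start are shown for the genes the results turn on: H2-K1 and B2m, the 2 chains of the class I molecule, Tap1, and Cd80, the only member whose brightest probe was called. RefSeq lists 2 windows for H2-K1, and the first is used. Capitals mark matches to the NF-kB consensus on either strand.
H2-K1, chr17:34000348-34000597, minus strand: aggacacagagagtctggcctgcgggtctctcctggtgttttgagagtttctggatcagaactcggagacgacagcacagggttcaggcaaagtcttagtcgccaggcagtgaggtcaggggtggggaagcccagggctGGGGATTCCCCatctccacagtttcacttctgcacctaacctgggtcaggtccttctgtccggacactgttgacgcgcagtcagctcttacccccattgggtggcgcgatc
B2m, chr2:122147437-122147686, plus strand: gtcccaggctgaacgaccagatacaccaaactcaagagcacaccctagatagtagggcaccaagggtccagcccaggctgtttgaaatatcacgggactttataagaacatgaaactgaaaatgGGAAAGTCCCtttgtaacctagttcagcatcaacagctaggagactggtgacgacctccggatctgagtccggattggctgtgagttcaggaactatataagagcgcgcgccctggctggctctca
Tap1, chr17:34187306-34187555, plus strand: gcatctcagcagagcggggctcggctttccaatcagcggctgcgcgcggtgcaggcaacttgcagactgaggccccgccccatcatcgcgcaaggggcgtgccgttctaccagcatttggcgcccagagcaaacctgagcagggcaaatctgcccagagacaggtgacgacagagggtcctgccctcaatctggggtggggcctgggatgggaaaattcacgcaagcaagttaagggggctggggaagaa
Cd80, chr16:38458683-38458932, plus strand: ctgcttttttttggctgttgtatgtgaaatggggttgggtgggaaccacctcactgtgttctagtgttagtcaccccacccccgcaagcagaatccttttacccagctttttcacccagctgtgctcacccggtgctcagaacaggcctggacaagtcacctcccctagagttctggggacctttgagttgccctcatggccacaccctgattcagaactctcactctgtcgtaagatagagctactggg
The NF-kB consensus lay in 2 of the 8 windows, H2-K1 and B2m, and in 7.25% of all 32851 promoter windows of 250 bases. It lay at -111 to -101 in the H2-K1 window, where 2 overlapping matches sit, and at -126 to -117 in the B2m window, counted from the start. The Tap1 and Psmb9 windows, on opposite strands of the same stretch of chromosome 17, share 225 bases. The interferon regulatory factor core AANNGAAA, searched on both strands, lay in 3 of 8 windows, those of B2m, H2-K1 and Cd274, and in 21.3% of all windows. The STAT element TTCNNNGAA, a palindrome, lay only in the Psmb8 window, 1 of 8, and in 7.02% of all. The box CCAAT, on both strands, lay in 5 of 8 windows (B2m, H2-K1, Tap1, Tapbp and Psmb9) and in 33.8% of all. None of these matches overlapped another motif's. A match describes letters and is not a binding site, and no match says only that the letters are not in this window.

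No member was called in any of the 4 comparisons with WT. In the D361E comparison, 0 of 9 members were called, against 0.485% of all genes. With 1-361 the count was also 0 of 9, against 0.715% of all genes. With 362-549 it was 0 of 9, against 0.715%. With 1-361+362-549 it was 0 of 9, against 5.13% of all genes. These counts are from the fit without a replicate block. With a replicate block by title order, Cd80 was called with 1-361+362-549 (-0.43, adjusted p = 0.0483). The groups did not overlap on any array for Cd80 in D361E (3.62% of all genes), for Tap1 in 1-361 (10.4%), for Tapbp in 362-549 (9.73%) and for Cd80 in 1-361+362-549 (16.6%), 1 of 9 members each time. The share of all genes without overlap was counted for these 4 comparisons only. In the F-test over the 5 groups, Cd80 was called (limma F-test, adjusted p = 0.01) and the other 8 were not, with adjusted p of 0.288 to 0.898. That test called 8.9% of all genes.

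**Figure D1:**
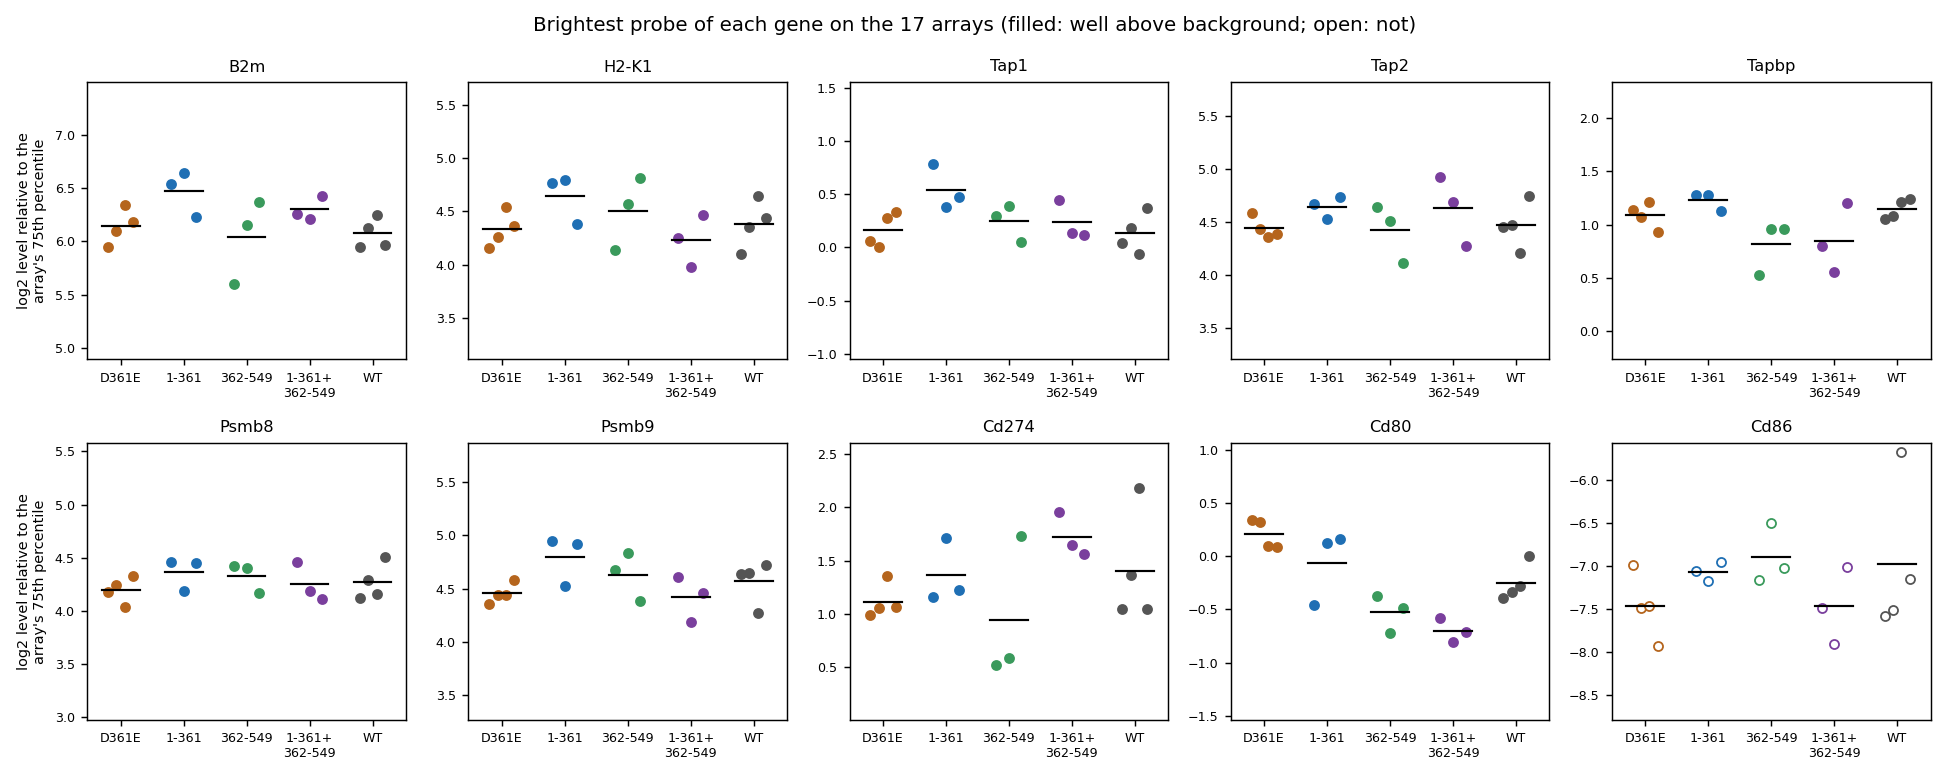
Level of the brightest probe of each of the 10 genes on the 17 arrays, by construct. Points are arrays, filled where the probe was well above background, bars are group means, and the y axis is the log2 level relative to the array's 75th percentile, with its own range in each panel. D361E stands highest for Cd80 and 1-361+362-549 lowest, and all 17 points of Cd86 are open.

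**Figure D2:**
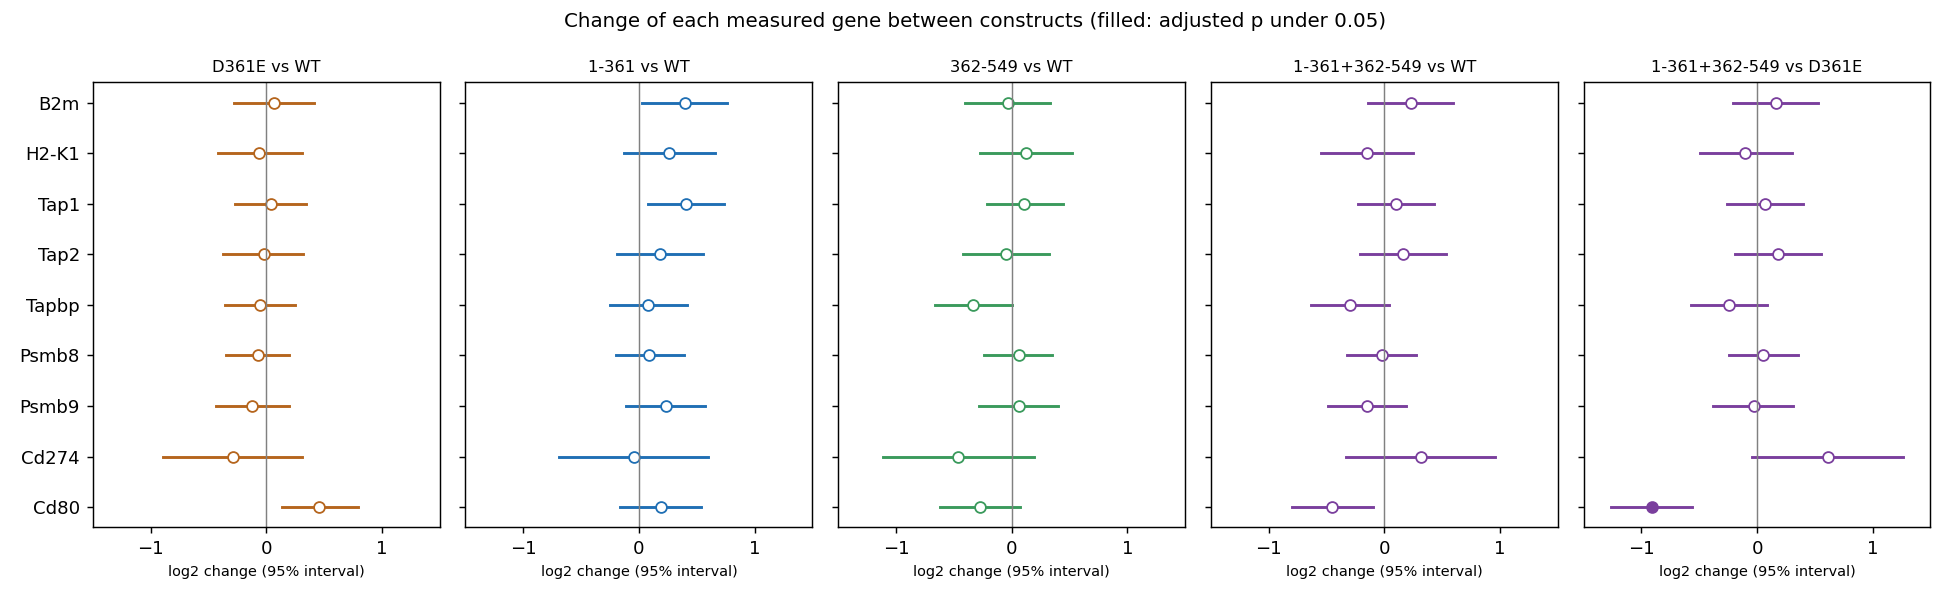
Change of the 9 tested genes in 5 comparisons, 1 a panel, with the log2 difference and its 95% interval from limma on the x axis. Open points did not pass the adjusted threshold, and the single filled one is Cd80 in 1-361+362-549 against D361E, at -0.91.

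Over the 7 genes B2m, H2-K1, Tap1, Tap2, Tapbp, Psmb8 and Psmb9 and all 10 comparisons, 0 of 70 changes were called, 8 had an unadjusted p under 0.05, and the changes ran between -0.42 and 0.43. Their 95% intervals reached from -0.84 to 0.82, and a gene inside them is not shown to be unaltered. B2m, the invariant light chain (probe A_51_P129012, build mm9, chr2:121978401-121978460, plus strand), read 5.95, 6.10, 6.34 and 6.18 on the D361E arrays. It read 6.54, 6.64 and 6.23 with 1-361. It read 5.60, 6.15 and 6.37 with 362-549. With 1-361+362-549 it read 6.26, 6.21 and 6.43, and with WT 5.95, 6.13, 6.25 and 5.97. The B2m arrays of all 5 constructs overlapped, and 1-361 differed from WT by 0.40 ± 0.17 (SE, adjusted p = 0.613).

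The heavy chain H2-K1 averaged 4.33 ± 0.17 with D361E (SD, n = 4), 4.65 ± 0.23 with 1-361, 4.51 ± 0.34 with 362-549, 4.23 ± 0.24 with 1-361+362-549 (n = 3 each), and 4.38 ± 0.23 with WT (n = 4), by its brighter probe. Its second probe lies farther 3' on the same transcript and averaged between -1.43 and -0.74 over the groups. Both probes had 1-361 on top, and neither was called. The letters of the brighter probe are shown because class I genes share much sequence: H2-K1, build mm9, chr17:34133984-34134043, minus strand: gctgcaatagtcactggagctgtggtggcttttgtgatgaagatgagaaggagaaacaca. Near-identical class I genes could share this signal, and C3H mice carry another H2 haplotype than the reference genome, so H2-K1 levels are uncertain. The match of these letters to the C3H allele was not tested.

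Tap1, a subunit of the peptide transporter (probe A_51_P100327, chr17:34330854-34330913, plus strand), read 0.06, 0.00, 0.28 and 0.33 with D361E. It read 0.78, 0.38 and 0.47 with 1-361, against 0.04, 0.18, -0.06 and 0.37 with WT. The 3 arrays of 1-361 were above all 4 of WT and all 4 of D361E. Against WT, 10.4% of all genes did not overlap, and against D361E that share was not counted. The changes of 0.41 ± 0.15 against WT (adjusted p = 0.487) and of 0.38 ± 0.15 against D361E (adjusted p = 0.465) did not pass. Tap2, the other subunit (probe A_55_P2017645, chr17:34353116-34353175, plus strand), averaged 4.42 to 4.64 over the groups, a spread of 0.22 between the highest and the lowest group mean.

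Tapbp, the tapasin that bridges transporter and heavy chain (probe A_55_P2149763, chr17:34065963-34066022, plus strand), read 0.53, 0.96 and 0.96 with 362-549, against 1.05, 1.08, 1.21 and 1.24 with WT. All 3 arrays lay below those of WT, in a comparison where 9.73% of all genes did not overlap. The change of -0.33 ± 0.16 was not called (adjusted p = 0.576). Psmb8, an immunoproteasome subunit (probe A_51_P345367, chr17:34337771-34337830, plus strand), spanned 0.48 over all 17 arrays and 0.17 between group means. Psmb9, its partner in the immunoproteasome, averaged 4.45 ± 0.09 with D361E, 4.80 ± 0.24 with 1-361, 4.63 ± 0.23 with 362-549, 4.42 ± 0.21 with 1-361+362-549 and 4.57 ± 0.20 with WT by its brighter probe (A_51_P369803, chr17:34319174-34319233, minus strand), and was not called.

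The group mean of 1-361 was the highest of the 5 constructs for all 7 class I genes. Without scaling between arrays, 1-361 was highest for 0 of the 7: 1-361+362-549 stood above it for all 7, and 1-361 stood above WT for 3. That setting moves the median change of all genes to 0.39 for 1-361+362-549 against 1-361 and to -0.19 for 1-361 against WT. Under quantile normalization 1-361 stood above 1-361+362-549 for 6 of the 7, as it did without 1-361+362-549 replicate 3 or 1-361 replicate 3. It stood above 362-549 for 6 of the 7 without replicate 1 or 3 of 362-549 or of 1-361. The 7 genes are not independent, and the order was not tested. None of these differences was called.

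A dimmer second probe of Psmb9 (A_55_P2038983, build mm9, chr17:34322762-34322821, minus strand, annotated to the transcript ENSMUST00000114230) was called, and the brighter one was not. It was well above background on 13 of 17 arrays and on none of the 3 with both fragments. It read -4.89, -5.38 and -4.60 with 1-361+362-549 and averaged -3.12 ± 0.32 with 1-361 (SD, n = 3), where the highest array was at -2.88 and the lowest at -3.48. It read -3.25, -3.42 and -3.73 with 362-549 and -3.37, -3.90, -4.10 and -4.63 with D361E. The WT arrays read -3.96, -3.76, -3.78 and -4.39, the last of them not well above background. The arrays with both fragments were below every array of 1-361, 362-549 and WT, and overlapped with D361E. The share of all probes without overlap was not counted. In the fit over all kept probes, the signal was 3.58-fold lower with both fragments than with 1-361 (log2 change -1.84 ± 0.29, SE, adjusted p = 0.00112). It was 2.81-fold lower than with 362-549 (-1.49 ± 0.29, adjusted p = 0.00455) and 1.94-fold lower than with D361E (-0.96 ± 0.27, adjusted p = 0.041). Of all genes, the comparisons with 1-361, 362-549 and D361E called 11.2%, 14.6% and 9.69%. The share of all kept probes called is not given. Lower bounds were sought by setting each array's lowest signal well above background as a floor. The probe's own signal exceeded that floor on all 3 arrays with both fragments. The folds are therefore plain estimates and not lower limits. Against WT the signal was 1.98-fold lower with 3 of 4 WT arrays well above background, and this did not pass (adjusted p = 0.0555). Within slides the difference was -1.90 and -1.72 against 1-361 (2 slides) and -1.23 to -0.75 against D361E (3 slides). Under normexp background correction the D361E difference turned to 0.09 (adjusted p = 0.95) and the other 2 were not called (adjusted p of 0.868 and 0.874). The call against D361E was also lost without scaling, without the filter on dim probes and with slide as a random block (adjusted p up to 0.156), and when 1 of 9 arrays was left out, with adjusted p up to 0.21. These were 1-361+362-549 replicates 1 and 2, 362-549 replicate 2, D361E replicates 1 to 3, 1-361 replicate 3, and WT replicates 1 and 2.

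Cd80, the ligand of CD28 and CTLA-4, was the only member whose brightest probe was called in any comparison. By its brighter probe (A_55_P2001218, build mm9, chr16:38486772-38486831, plus strand), it read 0.34, 0.32, 0.10 and 0.09 with D361E. It read -0.46, 0.12 and 0.16 with 1-361. It read -0.37, -0.72 and -0.49 with 362-549. It read -0.58, -0.81 and -0.71 with 1-361+362-549, and -0.39, -0.34, -0.28 and 0.00 with WT. D361E was the highest group and the both-fragment group the lowest, and these 2 groups did not overlap. The share of all genes without overlap between these 2 groups was not counted. Neither passed against WT, where D361E differed by 0.46 ± 0.15 (SE, adjusted p = 0.471) and 1-361+362-549 by -0.45 ± 0.16 (adjusted p = 0.146). The fragments alone differed from WT by 0.19 ± 0.16 with 1-361 (adjusted p = 0.828) and by -0.27 ± 0.16 with 362-549 (adjusted p = 0.749).

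Cd80 fell with 1-361+362-549 relative to D361E, with a log2 change of -0.91 ± 0.16 (SE, 95% interval -1.26 to -0.56, adjusted p = 0.002), in a comparison that called 9.69% of all genes. It fell with 362-549 relative to D361E, with a change of -0.74 ± 0.16 (adjusted p = 0.0364), where 1.28% of genes were called. It fell with 1-361+362-549 relative to 1-361, with a change of -0.64 ± 0.17 (adjusted p = 0.031), where 11.2% were called. In each of these comparisons 1 of 9 members was called. For 1-361+362-549 against D361E and against 1-361 that share is near the one over all genes. In 1-361 against D361E (1.02% of genes called), 1-361 against 362-549 (0.629%) and 1-361+362-549 against 362-549 (14.6%), 0 of 9 were called. In order of level, D361E, 1-361, WT, 362-549 and 1-361+362-549 follow each other, and no neighbours in that order were called as different.

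With slide as a block the D361E comparison was -0.83 (adjusted p = 0.0302), and within the 3 slides that held both groups it was -1.06 to -0.67. Without scaling between arrays, which moves the median change of all genes to 0.41 there, it was -0.50 and not called (adjusted p = 0.0943). The 362-549 call was lost with slide as a block (-0.85, adjusted p = 0.398), and the 1-361 call was lost too (-0.61, adjusted p = 0.153). Against 1-361 the change was -0.21 without scaling (adjusted p = 0.517) and -0.27 with the mean of both probes (adjusted p = 0.441). The call of 362-549 against D361E was also lost when any 1 of 10 arrays was left out, with adjusted p of 0.0508 to 0.2. These were 1-361+362-549 replicate 1, the 3 replicates of 362-549, the 4 of D361E, and WT replicates 1 and 2. The call of 1-361+362-549 against 1-361 was lost without 1-361+362-549 replicates 1 and 2 and without 1-361 replicates 2 and 3, with adjusted p of 0.0685 to 0.133.

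A second Cd80 probe did not order the groups in the same way. It reads the transcript 7429 bases upstream on the genome, and its letters are given because the difference between the probes limits what can be said of Cd80: Cd80, build mm9, chr16:38479343-38479402, plus strand: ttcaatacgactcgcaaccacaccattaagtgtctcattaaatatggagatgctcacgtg. It read -2.98, -3.35, -2.78 and -2.98 with D361E. It read -2.56, -2.64 and -3.02 with 1-361+362-549 and -3.87, -3.75, -3.01 and -3.40 with WT. It averaged -2.83 ± 0.56 with 1-361 and -3.76 ± 0.71 with 362-549, where 1 of 3 arrays was not well above background. By this probe, 1-361+362-549 was highest, 0.28 ± 0.32 above D361E (adjusted p = 0.616) and 0.77 ± 0.32 above WT (adjusted p = 0.223), and no comparison was called. The largest difference was 1.02 above 362-549 (adjusted p = 0.0597), which was called without scaling (1.63, adjusted p = 0.00508), with a replicate block (adjusted p = 0.0119), and without 1-361+362-549 replicate 3, 362-549 replicate 3 or 1-361 replicate 2 (adjusted p of 0.0409, 0.0303 and 0.0474). The difference from WT was called with the replicate block (0.79, adjusted p = 0.0396). The change by the brighter probe minus that by the dimmer was -1.20 for 1-361+362-549 against D361E (exact permutation test over arrays, p = 0.0286, the smallest of 35 splits, Benjamini-Hochberg 0.0857 over 4 tests) and -1.22 against WT (exact p = 0.0571). For Psmb9 the same difference was 0.92 and 0.83 (exact p = 0.0857 each). These 4 tests were chosen after the values were seen. The mean of both Cd80 probes gave -0.31 for 1-361+362-549 against D361E (adjusted p = 0.379), which was not called.

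**Figure D3:**
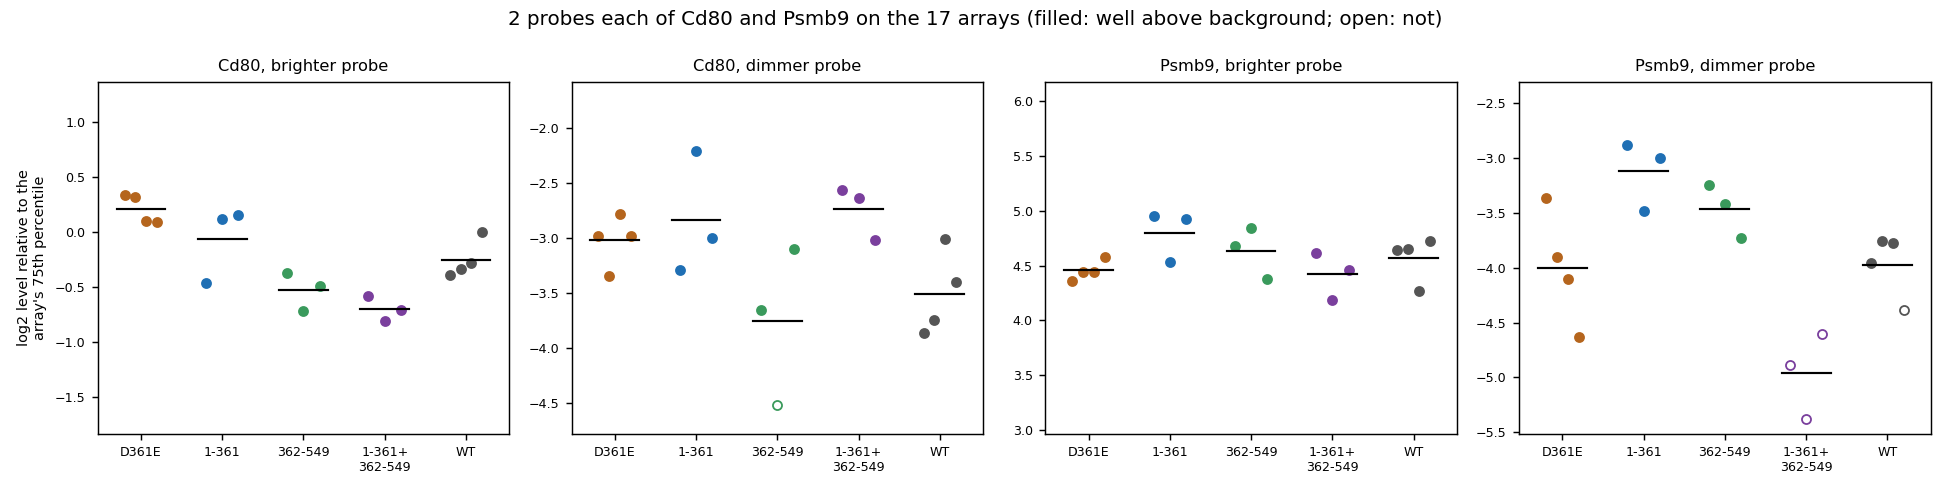
The 2 probes of Cd80 and the 2 of Psmb9 on the 17 arrays by construct. The y axis is the log2 level relative to the array's 75th percentile, over the same span of log2 units in each panel, points are arrays, bars are group means, and open points were not well above background. The brighter Cd80 probe is lowest and the dimmer one highest with 1-361+362-549, and the dimmer Psmb9 probe has open points on all 3 of those arrays.

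Markers of blood cells were set beside these Cd80 values. The summed level of 5 macrophage markers, on a linear scale relative to the 75th percentile, ran from 0.983 to 2.62 with 1-361+362-549, against 3.01 to 4.86 with D361E, and Adgre1 and Cd68 were called lower out of 3 tested, in the comparison that called 9.69% of all genes. The summed level of 6 dendritic cell markers ran from 26.6 to 50.3 with 1-361+362-549, against 30.7 to 62.0 with D361E, and Itgax and Ccr7 were called lower out of 4 tested. The 8 blood cell markers summed to 82.5 to 108 with 1-361+362-549, against 130 to 166 with D361E, with Spi1, Cd53 and Csf2rb called lower out of 7. Of 6 T cell markers, the 5 on the arrays summed to 2.47 to 5.24 with 1-361+362-549, against 4.46 to 6.93 with D361E. Cd3d and Cd3g were called lower out of 4 tested, and Cd8a was well above background on no array. Other lists did not fall: 5 B cell markers summed to 2.27 to 2.61 with 1-361+362-549, against 1.99 to 2.42 with D361E. The 4 natural killer cell markers summed to 1.55 to 2.99, against 2.06 to 2.46. In each of these lists 1 gene was tested and was not called. With 362-549 the macrophage sum was 2.37 to 4.25 and the dendritic cell sum 44.8 to 62.4. Only Itgax among the macrophage and dendritic cell lists was called lower with 362-549 than with D361E. Cd3g was called higher than with D361E both with 362-549 (1.28% of all genes called) and with 1-361 (1.02%). With 1-361 the sums were 3.79 to 4.20 for macrophage and 39.5 to 45.4 for dendritic cell markers. Their part in the Cd80 result was not tested. Over the 17 arrays, out of 11391 genes searched, the 3 genes most like Cd80 were Vsir (Pearson r of 0.858), Arhgap4 (0.852) and Gas7 (0.852), given as a description, since the points share arrays and groups.

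Cd274, the PD-1 ligand (probe A_51_P248666, build mm9, chr19:29462363-29462422, plus strand), read 0.99, 1.05, 1.35 and 1.06 with D361E. It read 1.16, 1.71 and 1.22 with 1-361. It read 0.52, 0.58 and 1.73 with 362-549, 1.96, 1.65 and 1.56 with 1-361+362-549, and 1.04, 1.36, 2.18 and 1.04 with WT. Replicates 3 of 362-549 and of WT stood well above the others of their groups. By the order of the title numbers, both belong to round 3, which also held the highest array of D361E (1.35) and of 1-361 (1.71), but the lowest of 1-361+362-549 (1.56). The 3 both-fragment arrays were above all 4 of D361E, by 0.61 ± 0.30, which was not called (adjusted p = 0.221). How many of all genes did not overlap between these groups was not counted. Without 362-549 replicate 3, the difference of 1-361+362-549 from 362-549 was 1.17 and was called (adjusted p = 0.0258), against 0.78 ± 0.32 with it (adjusted p = 0.114). With a replicate block and all arrays in, 0.78 was called (adjusted p = 0.0279). Cd86, the other CD28 ligand (probe A_55_P1971951, chr16:36603961-36604020, minus strand), was well above background on 0 of 17 arrays, with readings of -7.93 to -5.67, and no level or order is given for it.

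Of 15 other costimulatory and inhibitory ligands, 10 were tested, and 3 were called against WT, 1 each for D361E (0.485% of all genes called), 362-549 (0.715%) and 1-361+362-549 (5.13%). Pdcd1lg2, the second PD-1 ligand (PD-L2), read 2.67, 2.91 and 1.59 with 1-361+362-549, against 1.11, 0.94, 0.62 and 1.14 with WT, and rose by 1.43 ± 0.26 (adjusted p = 0.0034). It was also higher with both fragments than with D361E (1.33 ± 0.26, adjusted p = 0.00417), 1-361 (1.36 ± 0.28, adjusted p = 0.00699) and 362-549 (2.10 ± 0.28, adjusted p = 0.000163), in comparisons that called 9.69%, 11.2% and 14.6% of all genes. Every both-fragment array lay above every other array, and how many of all genes did so was not counted. All 4 calls held in the 9 other settings run for Pdcd1lg2 and with any array left out.

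Tnfsf9, the ligand of the costimulatory receptor 4-1BB, read 0.48, 0.55, 0.32 and 0.17 with D361E, against 0.87, 1.15, 1.15 and 1.10 with WT, and fell by 0.69 ± 0.13 on the log2 scale (adjusted p = 0.0284). With slide as a block this was -0.57 (adjusted p = 0.846), and within 2 slides -0.70 and -0.55. The call was lost when 1 of 7 arrays was left out, the 4 of D361E and WT replicates 2, 3 and 4, with adjusted p up to 0.136, and also without scaling (0.141), under normexp (0.388) and without the filter on dim probes (0.098). Icam1, which binds the integrin LFA-1, read -3.38, -2.72 and -2.50 with 362-549, against -1.89, -1.51, -1.66 and -1.45 with WT, and fell by 1.24 ± 0.26 (adjusted p = 0.0359). With slide as a block the change stayed at -1.24 (adjusted p = 0.179), and within 3 slides it was -1.93 to -0.99. That call was lost when 1 of 10 arrays was left out, with adjusted p up to 0.214, namely all 4 of WT, 362-549 replicates 1 and 2, 1-361+362-549 replicates 1 and 2, D361E replicate 2 and 1-361 replicate 2. It was also lost under quantile normalization (adjusted p = 0.0565), under normexp (0.7), without the filter (0.0947) and when probes had to be well above background on all arrays (0.0522). Icam1 was called higher with 1-361+362-549 than with 362-549 (0.87 ± 0.28, adjusted p = 0.0459), where 14.6% of all genes were called. That call was lost in 4 of 9 other settings (adjusted p up to 0.361) and when 1 of 10 arrays was left out (up to 0.176). Icosl, the ICOS ligand, was lower with 1-361+362-549 than with D361E (-1.04 ± 0.28, adjusted p = 0.0255), with replicate 3 at -0.10 and the others at -1.28 and -1.35. It was also lower than with 1-361 (-1.12 ± 0.29, adjusted p = 0.0266) and 362-549 (-1.09 ± 0.29, adjusted p = 0.0241). These comparisons called 9.69%, 11.2% and 14.6% of all genes. With slide as a block the adjusted p against D361E was 0.0951, and that call was lost without 1-361+362-549 replicates 1 and 2 or D361E replicates 1 to 3, with adjusted p up to 0.146. The D361E change was -0.63 without scaling (adjusted p = 0.0732), and was not called under normexp (0.167) or without the filter (0.0643). The calls against 1-361 and 362-549 were each lost in 4 of 9 other settings, with adjusted p up to 0.144 and 0.313. Icosl was named after its values were seen, as it was not called against WT.

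**Figure D4:**
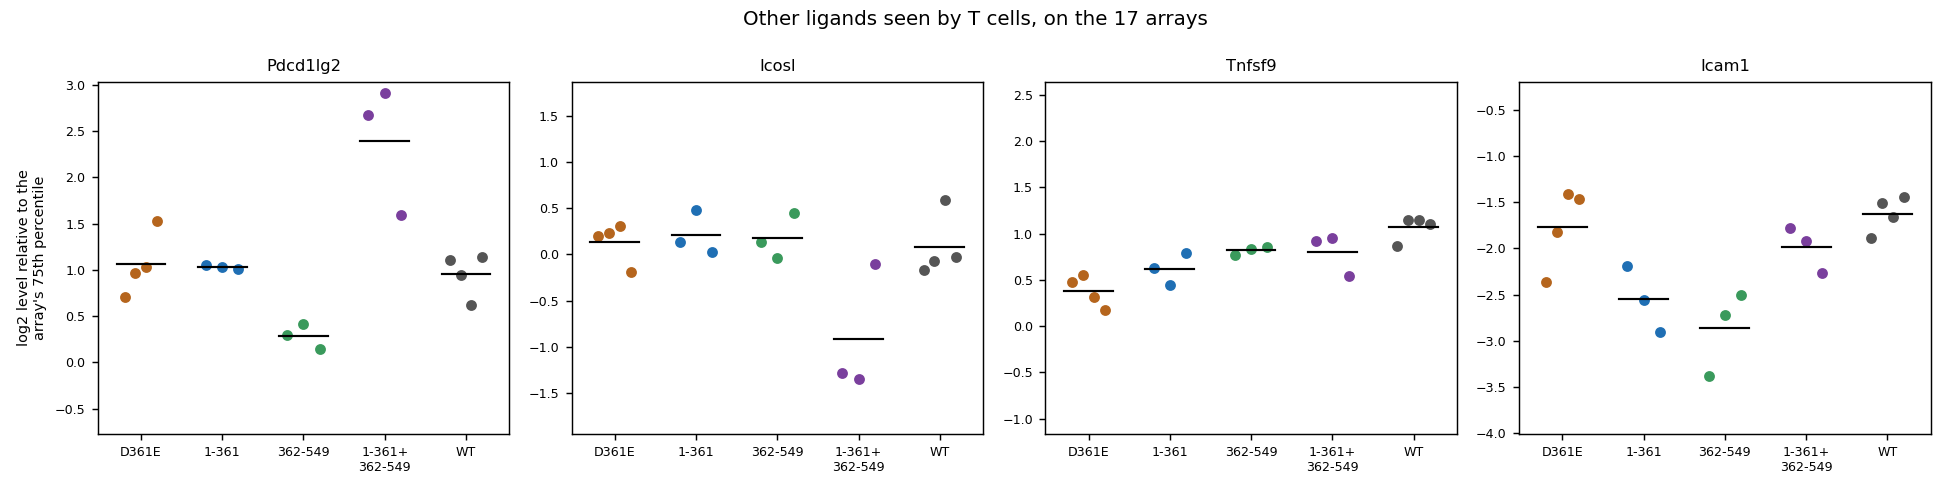
Levels of Pdcd1lg2, Icosl, Tnfsf9 and Icam1 on the 17 arrays by construct, on the log2 scale relative to the array's 75th percentile, over the same span in each panel. Points are arrays and bars are group means. Pdcd1lg2 is highest with 1-361+362-549 at 2.39, Tnfsf9 lowest with D361E at 0.38 and Icam1 lowest with 362-549 at -2.86, as group means.

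The rest of the presentation pathway was called against WT in no case. That held for 11 tested genes of 17 other class I heavy chains and class Ib genes, for 8 of 8 peptide loading and trimming genes, for 5 of 5 genes of the proteasome activator group with Psmb10, and for all 14 constitutive proteasome subunits. It also held for 11 tested of 14 regulators of class I transcription, 5 of 10 MHC class II genes and 4 of 10 ligands of natural killer cells. Of all genes, the comparisons with WT called 0.485% for D361E, 0.715% for 1-361, 0.715% for 362-549 and 5.13% for 1-361+362-549. In lists this short, no call is near such shares. The medians of the heavy chain list were -0.08 with D361E, 0.22 with 1-361, 0.06 with 362-549 and -0.10 with 1-361+362-549, beside medians over all genes of 0.03, 0.04, 0.05 and 0.04. Some other lists moved further. With 1-361+362-549 the median was -0.57 for MHC class II, and 0.28 for the constitutive proteasome and the proteasome activator group. The natural killer ligands stood at 0.56 with 1-361 and 0.40 with 362-549. These medians were not tested. In comparisons other than those with WT, 6 genes of these lists were called: Psma3, a proteasome subunit, Rfxank and Creb1, which act on class I promoters, Nfkb1, which encodes the p105 precursor of p50, H2-Ob, which modulates peptide loading of class II, and Raet1e, a natural killer ligand, each in 1 comparison of 1-361+362-549 with D361E, 1-361 or 362-549, which called 9.69% to 14.6% of all genes. All 6 calls were lost with slide as a fixed block (adjusted p of 0.102 to 0.402) and without the filter on dim probes (0.0675 to 0.112). Under normexp only the Nfkb1 call held (adjusted p = 0.0431), and Raet1e differed by -0.41 (adjusted p = 0.721). Raet1e was not well above background on 1-361+362-549 replicate 1. With the mean of its kept probes Creb1 differed by 0.20, against 0.97 by the brightest, and was not called (adjusted p = 0.372). The 6 genes were named after their values were seen.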

How the data were processed

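Total RNA of 17 transfected DA1-3b samples was hybridised to one-colour Agilent arrays. The authors deposited scanner output, in which each spot has an intensity. Per the file headers, Agilent Feature Extraction 10.7.3.1 made a background-subtracted processed signal, and the deposited series table equals it.

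Here, log2 processed signals were set relative to each array's 75th percentile. Control and outlier spots were left out and spots of 1 probe averaged. Probes that no construct showed well above background on all of its arrays were dropped, leaving 19769 of 39429. The brightest probe stood for a gene. Limma 3.58.1 in R 4.3.3 fitted the 5 groups in 1 model, with Benjamini-Hochberg adjustment over all 15254 genes, or over all kept probes where a second probe is given. Named were all members, related genes called against WT, and the 3 genes most like a called member. Genes and lists were chosen with earlier results of these data known. The fit was tested on simulated data. The number of arrays limits the precision. Alternatives changed the scaling, background correction, filter, probe choice, slide or replicate block, and the arrays used. Probe positions on genome and transcript are those of the array files. Exons and UTRs were not looked up, since no annotation of build mm9 was used here.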

Additional observations from a re-analysis of the deposited data

Results flagged for a closer look

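Creb1, a transcription factor of class I promoters (probe A_52_P517730), read -1.98 on D361E replicate 4, against -2.83, -2.84 and -2.97 on the other D361E arrays. The gap to the nearest array was 0.861 of the range of the group, above Dixon's 95% critical value for 4 arrays. It was the 1 array that stood apart in 46 groups tested, and chance alone gives about 1 in 20 groups.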

How the results depend on the processing

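The count of members called against WT stayed at 0 of 9 in all 10 other settings and with any array left out, except that with a replicate block Cd80 was called with 1-361+362-549 (1 member, -0.43, adjusted p = 0.0483). For 1-361+362-549 against 362-549, 1 member was called under quantile normalization (B2m), 4 without scaling (B2m, Tap2, Tapbp and Cd274), 1 with the mean of all kept probes (Psmb9) and 1 with the replicate block (Cd274). Without scaling the median change of all genes in that comparison was 0.58. The share of all genes called in each single setting is not given, only the range over settings below. For 1-361+362-549 against 1-361, 0 members were called without scaling, under normexp background correction, without the filter on dim probes and with slide as a fixed block, and 2 with the replicate block (Cd80 and H2-K1). For 362-549 against D361E, 0 were called under normexp, without the filter, with the mean of probes and with slide as a fixed block. For 1-361+362-549 against D361E, 0 were called with the mean of probes, and without scaling the 1 called was Cd274 in place of Cd80. With the mean of probes the 1 called for 1-361+362-549 against 1-361 and by the F-test was Psmb9 in place of Cd80. The F-test called 0 with slide as a fixed block and 2 with the replicate block (Cd80 and B2m). Of the called changes, that of the dimmer Psmb9 probe reversed, at 0.09 for 1-361+362-549 against D361E under normexp. Among changes not called, Cd80 also turned sign for 1-361+362-549. Against 362-549 (-0.17 as reported) it was 0.43 without scaling, 0.43 with the mean of probes and 0.02 with slide as a fixed block. Against WT it was 0.16 with the mean of probes, against -0.45. Without scaling 0 of the 7 class I genes were lower with 1-361+362-549 than with 1-361, against 7 as reported. The cause was not tested for these.

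With 1 array left out, the members called ran from 0 to 1 for 362-549 against D361E, from 0 to 2 for 1-361+362-549 against 1-361 (Tapbp joined without 1-361+362-549 replicate 3) and from 0 to 1 against 362-549. Title order was not used as a pairing in the main fit. Deviations of arrays with the same number correlated at 0.33 on average (-0.18 to 0.728), against -0.121 for other pairs, and 14 of 17 arrays correlated best with their own number, a hint from the data. Over all genes, the count called ran over the settings from 12 to 248 for D361E against WT (74 as reported), 31 to 206 for 1-361 (109), 28 to 194 for 362-549 (109), 199 to 4688 for 1-361+362-549 (783) and 366 to 5511 in the F-test (1358). For 362-549 against D361E it ran from 40 to 543 (196). For 1-361+362-549 it ran from 447 to 6072 against D361E (1478), 293 to 5637 against 1-361 (1701) and 269 to 6078 against 362-549 (2223). Signals near background limit Cd86 and the dimmer probes of Cd80 and Psmb9.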
